A study of Mus musculus with 2 samples.

Results

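The 7 haemoglobin genes of the mouse alpha and beta clusters were followed in single cells of the embryonic upper lip and primary palate. The members were the rows whose symbol was Hba-x, Hba-a1, Hba-a2, Hbb-y, Hbb-bh1, Hbb-bs or Hbb-bt, 7 of 27998 genes in the wild-type table and 7 of 28000 in the other table, which also lists a Cre and a lacZ transgene. Values were raw counts of UMIs, unique molecular identifiers that each mark 1 captured RNA molecule. Ratios between the genes were taken in the cells where the 7 genes together made 10% or more of all UMIs, called globin-high cells here. These were 252 of 7909 wild-type cells and 151 of 6687 cells of the other library, and the remaining 7657 and 6536 cells were used for the background level.

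The tissue was the lambdoid junction, where the facial prominences meet and fuse to make the upper lip and primary palate, taken from E11.5 embryos. The 2 libraries, made with the 10x Genomics 3' v2 kit, came from wild-type C57BL/6J embryos and from embryos carrying Crect; ROSA26-lacZ, whose strain label is also C57BL/6J. Crect is a Cre recombinase transgene active in ectoderm, and the lacZ reporter sits at the ROSA26 locus. Each library pooled 4 to 5 embryos, dissociated with trypsin, so the contributions of single embryos cannot be told apart.

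Haemoglobin carries oxygen as a tetramer of alpha-like and beta-like chains, each holding a haem group. In the mouse the first red cells, the primitive erythrocytes, arise in the yolk sac and circulate with a nucleus. They use zeta (Hba-x), epsilon-y (Hbb-y) and beta-h1 (Hbb-bh1) chains beside the alpha chains (Hba-a1, Hba-a2), and as they mature Hbb-bh1 gives way to Hbb-y and Hba-x to the alpha genes. Definitive red cells, made later by the fetal liver, use the alpha genes with the adult beta genes Hbb-bs and Hbb-bt.

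In build mm10 the alpha-like genes lay on the plus strand of chromosome 11, Hba-x at 32276400 to 32278116, Hba-a1 at 32283511 to 32284465 and Hba-a2 at 32296489 to 32297298. The beta-like genes lay on the minus strand of chromosome 7, Hbb-y at 103851749 to 103853216, Hbb-bh1 at 103841637 to 103843164, Hbb-bs at 103826534 to 103828096 and Hbb-bt at 103812524 to 103813996. On each chromosome the order along the strand was embryonic before adult. RefSeq promoter windows of build GRCm38.p6 were matched by symbol for 6 of the 7 genes, all but Hbb-bh1. The RefSeq starts differ from those of the gene spans above, which come from GENCODE. The windows of Hba-x, Hba-a1 and Hbb-bs lie wholly inside those spans, and the other windows overlap theirs in part. The 150 bases before the RefSeq start are printed for 5 of them, 5′ to 3′, to set the embryonic genes beside the adult pairs whose balance is described further on. Capitals mark 4 short motifs searched on both strands. The TATA-like motif was spelled ATATAA, with CATAAA as a second form. The CCAAT box was spelled by its name. The CACCC box was spelled likewise. The GATA motif was spelled GATAA.
Hba-x (chr11:32276450-32276599, plus strand): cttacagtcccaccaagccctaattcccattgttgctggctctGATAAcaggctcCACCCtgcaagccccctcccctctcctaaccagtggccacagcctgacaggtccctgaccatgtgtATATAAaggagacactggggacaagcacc
Hba-a1 (chr11:32283522-32283671, plus strand): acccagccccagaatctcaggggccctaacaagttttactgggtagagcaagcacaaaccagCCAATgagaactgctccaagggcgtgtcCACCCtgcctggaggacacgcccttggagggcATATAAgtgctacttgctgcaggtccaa
Hbb-y (chr7:103853208-103853357, minus strand): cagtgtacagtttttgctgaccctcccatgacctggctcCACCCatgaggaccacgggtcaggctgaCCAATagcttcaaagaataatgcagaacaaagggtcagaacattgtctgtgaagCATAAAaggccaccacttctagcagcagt
Hbb-bs (chr7:103827929-103828078, minus strand): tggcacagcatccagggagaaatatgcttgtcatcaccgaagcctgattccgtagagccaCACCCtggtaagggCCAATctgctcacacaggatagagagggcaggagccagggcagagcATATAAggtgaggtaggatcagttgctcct
Hbb-bt (chr7:103813924-103814073, minus strand): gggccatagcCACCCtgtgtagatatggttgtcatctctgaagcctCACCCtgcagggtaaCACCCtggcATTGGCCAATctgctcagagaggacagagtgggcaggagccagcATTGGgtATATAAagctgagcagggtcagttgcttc
Each of the 6 windows held a TATA-like match and a CACCC match, which 11.0% and 37.4% of 32851 windows of this length also held. The TATA-like match stood at -29 to -24 before the start in Hba-x, in Hbb-y and in the adult gene Hbb-bt. In Hba-a1, Hba-a2 and Hbb-bs it began at -28, -31 and -30. CCAAT was found in every window but that of Hba-x, and in 24.5% of all windows. GATAA was found only in the Hba-x window, at -107 to -103, and in 13.3% of all windows. The Hba-a2 window, not printed, was identical to that of Hba-a1 over all 147 bases that could be laid side by side. The Hbb-bs and Hbb-bt windows shared 106 of 149 bases (71.1%), and Hbb-bt alone held 3 CACCC and 3 CCAAT matches, an adjoining pair of the latter lying on opposite strands.

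The libraries held 126638790 wild-type and 127765199 Crect lacZ UMIs. Barcodes with over 10% of UMIs in mitochondrial genes, 57 and 207, were left out, and none of them reached the haemoglobin threshold. Of the barcode sequences 76 occurred in both libraries, none of them on a globin-high cell. The globin-high cells made 3.19% of wild-type cells (95% exact interval 2.81 to 3.60) and 2.26% of Crect lacZ cells (1.92 to 2.64). Intervals of cell percentages and background levels cover counting error only. Those of medians cover the sampling of cells within 1 library, taken as independent. With 1 library per genotype no difference between genotypes could be tested.

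Globin-high cells stood far from the rest. The 7 genes took 60.6% of a wild-type globin-high cell's UMIs at the median (19.0 to 79.6%) and 56.0% in the Crect lacZ library (10.6 to 77.1%). In the other cells the median share was 0.374% and 0.176%. Only 3 wild-type and 4 Crect lacZ cells lay between 1% and 10%, the nearest below the threshold at 3.95% and at 9.30% and 9.22%, and the nearest above it at 19.0% and 10.6%. Globin-high cells held 91.2% of all haemoglobin UMIs of the wild-type library and 86.7% of those of the Crect lacZ library. Their median depth was 30626.5 UMIs and 2903 genes in the wild-type library and 13892 UMIs and 1848 genes in the Crect lacZ library, so single-cell ratios rested on fewer molecules in the latter.

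**Figure D1:**
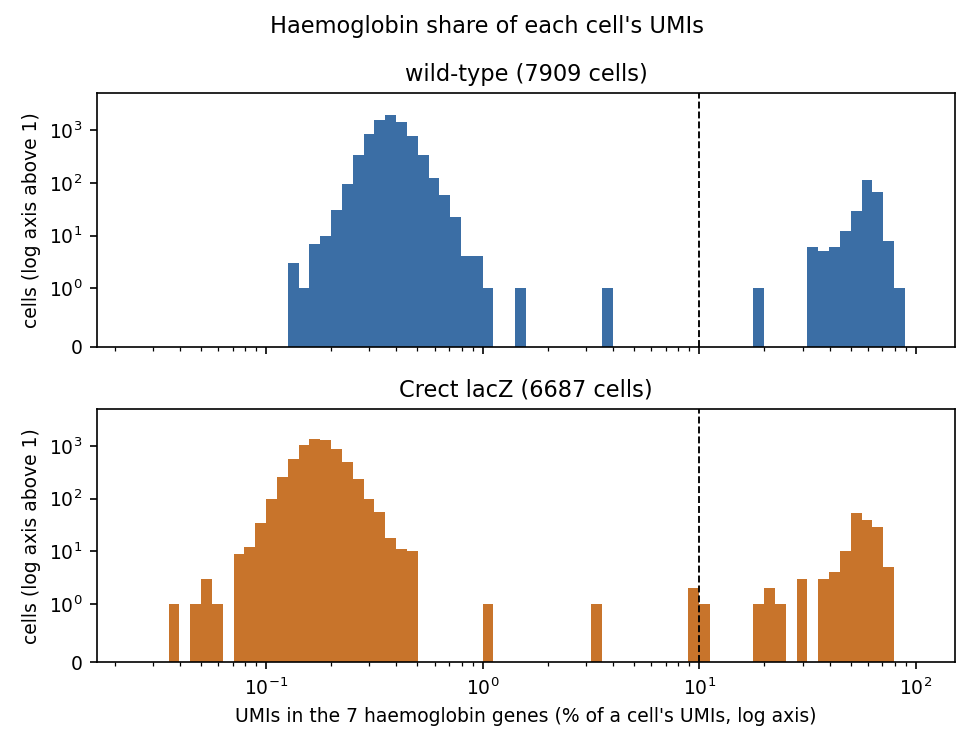
Number of cells (vertical axis, logarithmic above 1) by the percentage of a cell's UMIs in the 7 haemoglobin genes (horizontal axis, logarithmic) in 7909 wild-type and 6687 Crect lacZ cells. The dashed line is the 10% threshold, and few cells lie between the low peak near 0.374% or 0.176% and the high peak near 60.6% or 56.0%.

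The cells were red cells by genes that the rule did not use. When cells were clustered without the 7 genes, 251 of 252 wild-type and 151 of 151 Crect lacZ globin-high cells fell into the cluster that carried the erythroid markers, which held 252 and 152 cells. Of the 12 erythroid markers 11 were in the tables, and together they gave 144.3 UMIs per 10000 other UMIs in wild-type globin-high cells and 110.9 in Crect lacZ ones, against 0.65 and 0.41 in the other cells. Alas2, the first enzyme of haem synthesis in red cells, had UMIs in 252 of 252 and 151 of 151 globin-high cells. Kit and Myb, marks of red cell progenitors, had UMIs in 2 and 2 of 252 wild-type cells and in 5 and 0 of 151 Crect lacZ cells. Both belong to a list of 12 progenitor and early erythroid genes. Of that list 6 had enough UMIs in globin-high cells to be tested further on, namely Smim1, Epor, Mcm2, Rgcc, Gata2 and Myc. Macrophage markers were near 0, at 0.21 and 0.10 UMIs per 10000. Mesenchyme markers, the main other signal of this tissue, were at 6.39 and 6.45 in globin-high cells, with 23.1 and 22.0 in the other cells. They were higher where the haemoglobin share was lower, at 16.5 and 15.7 below a 40% share and 4.25 and 3.95 from 50% upward, and 20 wild-type and 15 Crect lacZ globin-high barcodes were marked as possible doublets by Scrublet.

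Hba-x, the embryonic zeta chain, was abundant in every globin-high cell. Its level was 907.5 UMIs per 10000 at the median in wild-type cells (202.4 to 1227) and 573.6 in Crect lacZ cells (117.8 to 962.3). UMIs were counted at the 3′ end of each RNA and were not divided by gene length. As a share of the alpha-like UMIs Hba-x took 35.1% at the median in wild-type cells (15.5 to 46.3%) and 25.9% in Crect lacZ cells (13.5 to 39.0%). The ranges overlapped, and the wild-type cells lay higher. Counting error alone would give a spread of 0.630 and 0.851 percentage points (SD), while the cells spread by 4.96 and 4.45, so cells of the same library differed by more than counting. Hba-x exceeded Hba-a1 in 47 of 252 wild-type cells and in 0 of 151 Crect lacZ cells, a count that allows a share of up to 1.99% in the latter.

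Hba-a1 and Hba-a2, which code for the alpha chain used in embryo and adult alike, were also present in every cell. Hba-a1 was at 1051 UMIs per 10000 at the median in wild-type cells (312.1 to 2020) and at 1179 in Crect lacZ cells (196.0 to 1976). Hba-a2 was at 619.5 (193.5 to 1737) and 471.6 (84.0 to 925.5). The balance of this pair separated the libraries almost fully. Hba-a1 took 62.9% of the Hba-a1 and Hba-a2 UMIs at the median in wild-type cells (53.8 to 68.1%) and 71.0% in Crect lacZ cells (67.3 to 77.3%). Only 2 wild-type cells reached the lowest Crect lacZ value, and only 4 Crect lacZ cells lay at or below the highest wild-type value. Within a library the pair varied little, with an SD of 2.44 and 1.88 percentage points against 0.781 and 1.02 from counting. The same step was seen outside the red cells, where Hba-a1 took 61.2% and 69.6% of the pair's background UMIs. Those UMIs share the library and its counting, so they are not an independent observation.

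Those 2 genes have nearly the same RNA, which limits the split. Their annotated transcripts share an identical run of 415 bases, and 50.2% of the 100-base windows in the last 300 bases of Hba-a1 occur in Hba-a2. Reads that match both copies depend on how the authors' counting treats them, so the levels of Hba-a1 and Hba-a2 are uncertain as single values. If such reads were dropped, the sum of the pair and the Hba-x share would be affected too, which was not tested.

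Hbb-y, the epsilon-y chain, was the most abundant haemoglobin RNA in 252 of 252 wild-type and 151 of 151 Crect lacZ cells. Its level was 2602 UMIs per 10000 at the median in wild-type cells (1001 to 3475) and 2586 in Crect lacZ cells (496.4 to 3344), nearly the same in both. It took 76.1% of beta-like UMIs at the median in wild-type cells (65.6 to 93.0%) and 76.7% in Crect lacZ cells (68.6 to 83.5%). Hbb-bh1, the beta-h1 chain of the youngest primitive cells, came next among the beta-like genes, at 509.4 UMIs per 10000 (35.4 to 934.0) and 512.3 (116.1 to 894.9).

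The share of Hbb-bh1 among Hbb-bh1 and Hbb-y UMIs serves here as a measure of the order in which these genes follow each other. It was 16.6% at the median in wild-type cells (95% interval of the median 15.9 to 17.5) and 16.9% in Crect lacZ cells (16.0 to 17.9). Single cells ran from 1.07 to 26.0% and from 8.26 to 25.2%, without a gap into separate groups in the plot of embryonic and adult shares. The spread was 9.76 and 6.19 times that of counting error. No cell had more Hbb-bh1 than Hbb-y, and 0 of 403 cells allows a share of up to 0.744%.

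Hbb-bs and Hbb-bt, the adult beta genes, were a minor part in every globin-high cell. Together they took 8.56% of beta-like UMIs at the median in wild-type cells (0.546 to 24.2%) and 7.11% in Crect lacZ cells (1.94 to 21.9%). Only 2 wild-type cells and 1 Crect lacZ cell exceeded 20%, and 0 of 403 cells exceeded 50%, so a globin-high cell with mainly adult beta RNA was not detected. All 7 genes had UMIs in 251 of 252 and 151 of 151 cells, and the 1 remaining cell lacked Hbb-bs.

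**Figure D2:**
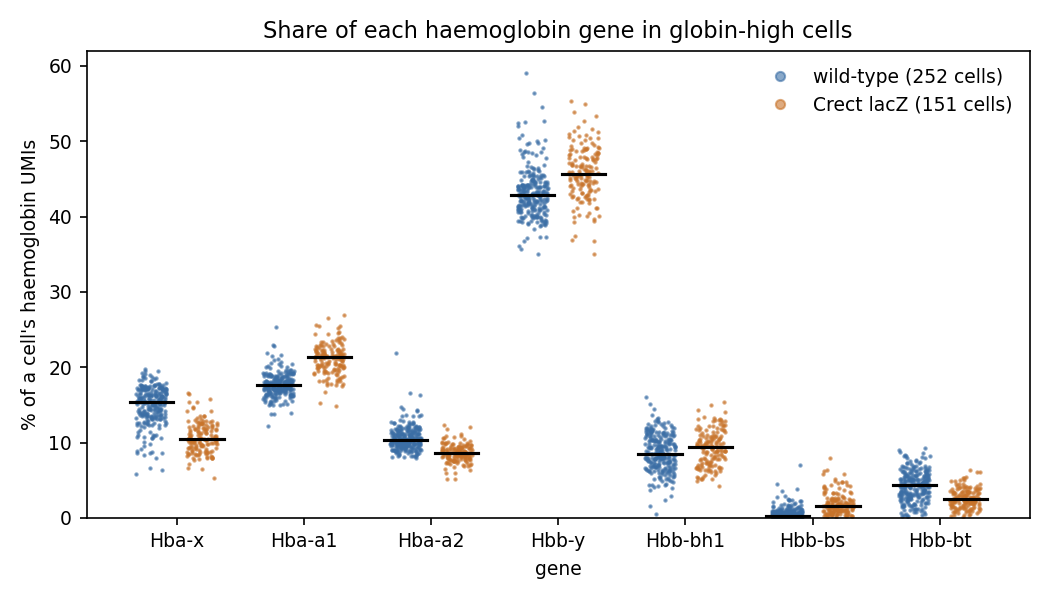
Percentage of a cell's haemoglobin UMIs (vertical axis) in each of the 7 genes (horizontal axis) for 252 wild-type and 151 Crect lacZ globin-high cells, 1 point per cell, with bars at the medians. Hbb-y is highest in both libraries at 42.9% and 45.7%, Hba-x is lower in the Crect lacZ cells at 10.5% against 15.4%, and Hbb-bs is higher there at 1.54% against 0.307%.

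The 2 adult beta genes were counted in unlike proportions. Hbb-bt was at 254.1 UMIs per 10000 at the median in wild-type cells (11.2 to 673.4) and 137.3 in Crect lacZ cells (8.87 to 439.8). Hbb-bs was at 17.5 (0 to 410.5) and 82.0 (6.10 to 608.5). Hbb-bt therefore took 93.3% of the pair's UMIs at the median in wild-type cells and 62.4% in Crect lacZ cells. Unlike the alpha pair, this balance ran over nearly its whole range from cell to cell, from 9.18 to 100% and from 7.67 to 93.6%. Hbb-bt took over 90% of the pair in 153 of 252 wild-type cells and in 6 of 151 Crect lacZ cells, and under 50% in 9 and 53 cells. The SD between cells, 14.6 and 21.1 percentage points, was 9.39 and 6.58 times the counting error. Summed over cells the share was 87.0% and 56.7%, below the medians.

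The transcripts of this pair share an identical run of 430 bases, but only 20.9% of the 100-base windows in the last 300 bases of Hbb-bs occur in Hbb-bt, against 50.2% for the alpha pair. Reads that match both genes depend on the counting here as well. If they were dropped, the adult share of beta-like UMIs would be affected too, which was not tested. In the background the Hbb-bt share was 86.0% and 60.2%, so the step between libraries was present there too, though not as an independent observation. Cells were also split by sex-linked UMIs, with more than 1 Xist UMI or at least 1 Y-linked UMI needed. In cells with Xist UMIs and no Y-linked UMI the median was 93.1% in 97 wild-type and 60.6% in 32 Crect lacZ cells. In cells with Y-linked UMIs and no Xist UMI it was 93.7% in 38 and 63.2% in 34. Genotype, embryo pool and library preparation cannot be told apart as the source of these steps.

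**Figure D3:**
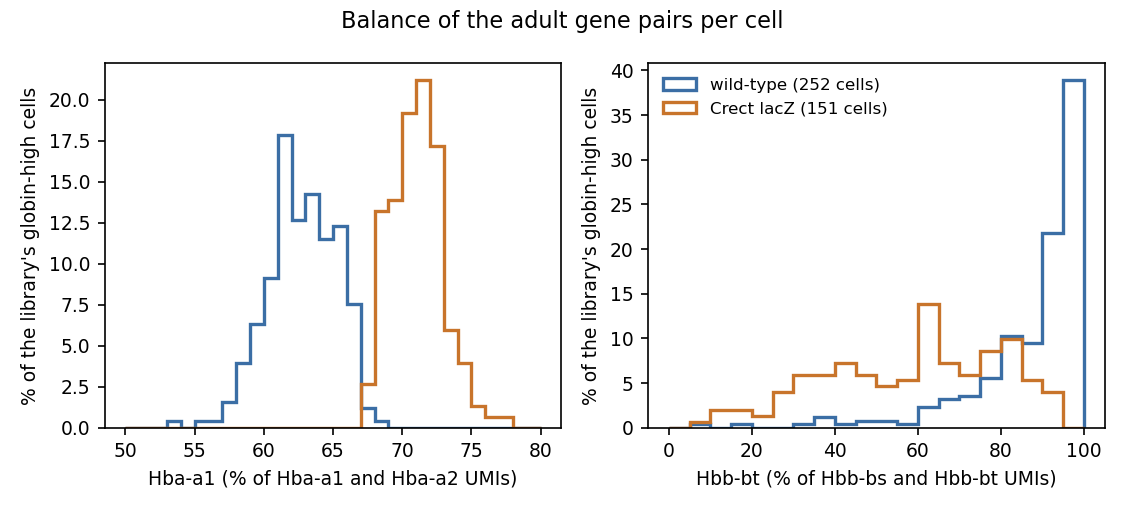
Percentage of a library's globin-high cells (vertical axes) by the Hba-a1 share of Hba-a1 and Hba-a2 UMIs in bins of 1 percentage point (left) and by the Hbb-bt share of Hbb-bs and Hbb-bt UMIs in bins of 5 (right). The Hba-a1 distributions are narrow and nearly apart, with medians of 62.9% and 71.0%, while the Hbb-bt share spreads widely in both libraries, with medians of 93.3% and 62.4%.

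Alpha-like and beta-like RNA were of the same order. The alpha-like genes took 43.5% of haemoglobin UMIs at the median in wild-type cells (28.2 to 55.9%) and 40.5% in Crect lacZ cells (32.8 to 50.6%), and summed over cells the alpha to beta ratio was 0.779 and 0.703. They made up more than 50% in 3 wild-type cells and 1 Crect lacZ cell. The embryonic genes Hba-x, Hbb-y and Hbb-bh1 together took 67.2% at the median (49.5 to 75.6%) and 65.8% (50.4 to 75.02%). The lower Hba-x level of the Crect lacZ cells stood beside a higher Hba-a1 level, at 1179 against 1051 UMIs per 10000. Hba-a2 was lower there, at 471.6 against 619.5, and the single levels of this pair are uncertain. The medians of the embryonic total lay closer together than those of Hba-x.

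The embryonic and adult shares moved together across cells of each library. Cells with more Hbb-bh1 relative to Hbb-y had more Hba-x among their alpha-like UMIs, with Spearman correlations of 0.40 over 252 wild-type and 0.42 over 151 Crect lacZ cells, and fewer adult beta UMIs, at -0.52 and -0.51. The first pair of measures shares no gene, whereas the second shares the Hbb-y and Hbb-bh1 counts, and all cells of a library share its preparation and sequencing. The Hbb-bt share of the adult pair had correlations with the Hbb-bh1 share of -0.03 and 0.13, and with the Hba-x share of 0.02 and 0.30. In the 50 wild-type cells with the lowest Hbb-bh1 share (median 11.0%) the median Hba-x share was 32.1% and the adult share 10.1%, and in the 51 with the highest (22.0%) they were 36.7% and 4.82%. The 30 lowest Crect lacZ cells (11.8%) had 22.9% Hba-x and 8.83% adult, and the 31 highest (21.7%) had 27.4% and 4.76%. The alpha-like share of all haemoglobin UMIs hardly moved along the same order, at 43.4 and 43.6% in the wild-type cells and 39.7 and 40.4% in the Crect lacZ cells.

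**Figure D4:**
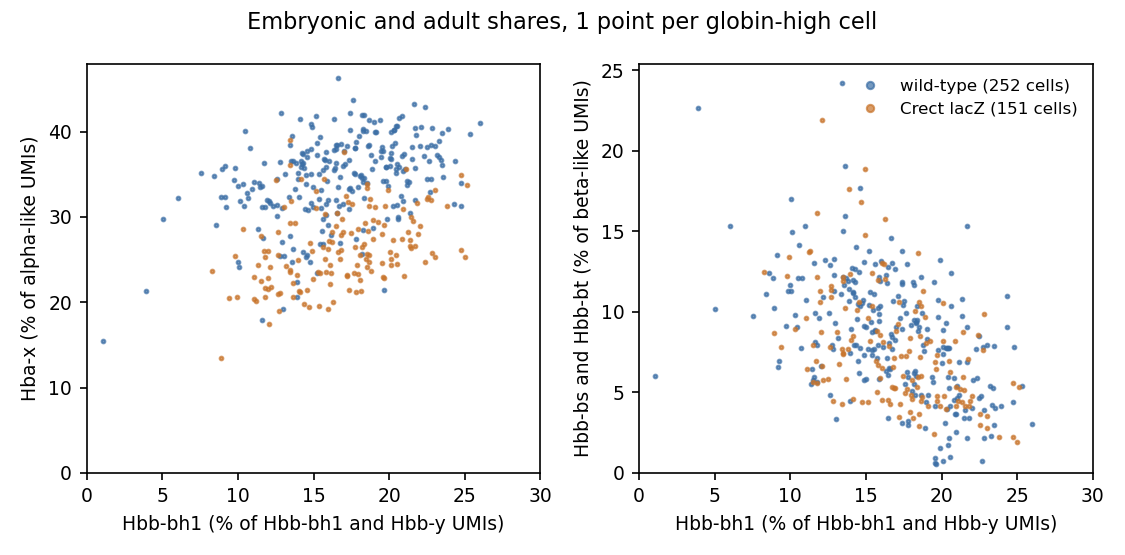
Hbb-bh1 share of Hbb-bh1 and Hbb-y UMIs (horizontal axes, %) against the Hba-x share of alpha-like UMIs (left, %) and the adult share of beta-like UMIs (right, %), 1 point per globin-high cell, in 252 wild-type and 151 Crect lacZ cells. The left clouds rise (Spearman 0.40 and 0.42) with the Crect lacZ cells lower, and the right clouds fall (-0.52 and -0.51) with both libraries overlapping.

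To ask which other genes moved with this order, the globin-high cells of each library were split at their median Hbb-bh1 share, 16.6% and 16.9%, and UMIs were summed in the Hbb-bh1-rich cells (126 and 75) and the Hbb-bh1-poor cells (126 and 76). The classes are parts of a continuous range, with 40 wild-type and 28 Crect lacZ cells within 1 percentage point of the cut. The 7 members were left out of the test, since they made the split. The fit used edgeR's quasi-likelihood test with the library as a block on the 4 sums, with a single residual degree of freedom and a spread pooled over all genes. Of 7414 genes tested 2 (0.0270%) were called higher and 11 (0.148%) lower in the Hbb-bh1-rich cells at an adjusted p under 0.05 and a change of at least 2-fold. Without the fold threshold they were 21 (0.283%) and 27 (0.364%). The calls were not shared by a fit with another method or by one without the block. DESeq2, which differs in its filter, spread model and test, called 0 genes at 2-fold (34 higher and 19 lower at an unadjusted p under 0.05, 344 and 330 in edgeR), and edgeR without the block called 0 (51 and 72).

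Among the lists, that of S phase, the time of DNA replication, had the most genes past the test. Of 43 S phase genes tested 6 passed the test at any fold, all higher, 1 of them by more than 2-fold, beside the 21 of 7414 (0.283%) over all genes. The median log2 change of the list was 0.25, against -0.0033 over all genes. Of the 43 genes 28 were higher in both libraries and 3 lower in both, beside 1683 and 2288 of 7414 over all genes. Cdc6, which loads the replicative helicase onto origins, was at 49.6 CPM (UMIs scaled to a fixed total of non-haemoglobin UMIs) in rich and 17.6 in poor wild-type cells, and at 34.0 and 12.7 in Crect lacZ cells. Both rich sums lay above both poor sums, a log2 change of 1.53 ± 0.28 (SE; adjusted p = 5.14e-05, edgeR). Mcm7 of the helicase itself was at 222.5 against 150.4 CPM and 226.9 against 142.4, a log2 change of 0.65 ± 0.12 (adjusted p = 1.32e-04, edgeR). Mcm6 rose by 0.65, Mcm3 by 0.70, Mcm2 by 0.58 and Slbp, which binds histone mRNA, by 0.44 on the log2 scale. Mcm2 is also 1 of the 6 progenitor and early erythroid genes tested, of which 2 passed, the other being Smim1 at a log2 change of 0.39. Of 14 ribosome biogenesis genes tested 0 passed, with a median of 0.30 and with 11 higher and 1 lower in both libraries. At an unadjusted p under 0.05 (edgeR) 5 were higher, beside 344 of 7414 over all genes.

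Single genes of growth arrest, maturation and mitosis were higher in the Hbb-bh1-poor cells. Cdkn2d, an inhibitor of the cyclin-dependent kinases of G1, was at 105.4 CPM in rich and 215.4 in poor wild-type cells and at 121.6 and 156.7 in Crect lacZ cells, a log2 change of -0.76 ± 0.13 (adjusted p = 2.20e-05, edgeR). It was the only one of 5 inhibitor genes tested that passed, and the median of the 5 was -0.17. Ypel3, a growth suppressor, was at 149.4 against 231.0 and 116.7 against 177.3 CPM (log2 change -0.57, adjusted p = 0.00309, edgeR). It was the only one of 19 terminal maturation, organelle loss and autophagy genes that passed. Of the 19 genes 13 were lower in both libraries and 0 higher in both, with a median of -0.18. Over all 7414 genes 2288 were lower in both and 1683 higher in both. Nusap1, a spindle protein, was the only one of 52 G2 and M phase genes that passed, with a log2 change of -0.44. The list median was -0.09 (-0.29 without doublets, -0.26 at a 50% threshold). Of the 52 genes 12 were lower and 2 higher in both libraries, both smaller shares than over all genes. Most of the list had opposite signs in the 2 libraries. Hsd3b6, a steroid dehydrogenase gene, was at 358.5 against 608.9 and 283.6 against 622.0 CPM, a log2 change of -0.85 ± 0.10 (adjusted p = 1.69e-14, edgeR), under the 2-fold threshold.

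The other globin genes were minor beside the 7. Hbq1b, a theta-like gene of the alpha cluster, had 589 UMIs in wild-type and 142 in Crect lacZ globin-high cells, and its log2 change of -0.18 did not pass (adjusted p = 0.748, edgeR). Hbq1a had 21 and 17 UMIs and was called lower in the Hbb-bh1-rich cells, with 2.79 against 10.8 and 3.24 against 23.7 CPM, values that rest on few molecules. Hbb-bh2 had 7 and 6 UMIs.

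The machinery of haem and the red cell membrane did not pass the test in this split. Of 12 haem synthesis genes, 13 iron and globin chain handling genes, 18 red cell membrane and blood group genes, 15 erythroid transcription factors, 20 globin switching regulators and 16 genes of the dissociation response 0 passed at any fold. Their median log2 changes were 0.06, -0.03, -0.12, -0.01, -0.06 and -0.06. Of the 18 membrane genes 13 were lower in both libraries and 1 higher, beside 2288 and 1683 of 7414 over all genes. Among the regulators Bcl11a, a repressor of embryonic globin genes, had a log2 change of -0.67 ± 0.22 with an adjusted p of 0.169 (edgeR), and Klf1, an activator of the adult beta gene, had 0.04 ± 0.10 with 0.957. A p above the threshold does not show that these genes were alike in both classes.

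The remaining genes called lower at 2-fold were in no list. Cxcl14, a chemokine, was at 64.1 against 152.4 and 43.8 against 102.9 CPM, a log2 change of -1.19 ± 0.17 (adjusted p = 4.38e-09, edgeR). Trps1, a zinc finger repressor, had a log2 change of -1.43, with -1.58 in the wild-type and -0.81 in the Crect lacZ library alone. Rab8b had -1.27, with -1.64 and -0.70. 4930455G09Rik had -1.20 and Vopp1 -1.12. The rest, named because the count is small, were Igfbp2, Fam174b, Igsf3, Robo2 and Zfp580 lower and Wdr4 higher. Igfbp2 had a log2 change of -0.19 in the wild-type and -2.40 in the Crect lacZ library. Markers of mesenchyme were lower on balance as well, with a median log2 change of -0.37 and 0 past the test. Over all genes 2288 of 7414 were lower in both libraries, and of these markers 6 of 8 were. Their summed level was 5.10 UMIs per 10000 in rich and 7.97 in poor wild-type cells, and 6.45 and 6.44 in Crect lacZ cells, with none of the 8 at 0. Ectoderm markers were at 0.781 and 0.772, and at 0.632 and 1.73. Scrublet-marked barcodes were 7 in the rich and 13 in the poor wild-type cells, and 5 and 10 in the Crect lacZ cells. Without them 2 genes higher and 5 lower were called. Cdc6 and Wdr4 were the 2 higher ones, and Cxcl14, Trps1, Igfbp2, Fam174b, Zfp580 and Robo2 were no longer called. Cxcl14 then had a log2 change of -0.16, Igfbp2 of -0.27, Trps1 of -0.44 and Robo2 of -0.80. Fam174b, at -0.99 (adjusted p = 0.00475, edgeR), and Zfp580, at -1.63 (adjusted p = 0.0915, edgeR), kept nearly their full change. At a 50% threshold with doublets kept, the log2 change was -0.21 for Cxcl14, -0.54 for Igfbp2, -1.07 for Trps1 and -1.33 for Robo2. It was -0.97 for Fam174b and -2.10 for Zfp580, the only ones of these with an adjusted p under 0.05 (edgeR). Cxcl14, Trps1 and Robo2 were among the 10 leading genes of mesenchyme-like clusters, and Fam174b of an unnamed cluster. The part of other cells' RNA in these calls, or in those that remained without doublets, was not tested.

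Of the sex-linked genes tested, Xist and Eif2s3y passed the test and Ddx3y did not. Xist, the RNA of the inactive X chromosome, was at 330.6 against 526.3 and 239.9 against 447.9 CPM, a log2 change of -0.70 ± 0.10 (adjusted p = 1.14e-08, edgeR), and Y-linked Eif2s3y at 42.9 against 27.1 and 77.8 against 28.5, a log2 change of 0.996 ± 0.231 (adjusted p = 0.00566, edgeR). Y-linked Ddx3y went the other way, at 10.0 against 14.9 and 17.8 against 26.9 CPM, a log2 change of -0.53 ± 0.38 (adjusted p = 0.747, edgeR). In edgeR the Eif2s3y call was lost without doublets (adjusted p = 0.151), at a 50% threshold (0.122) and between the outer parts of each range (0.153), and under a split by the Hba-x share Xist had a log2 change of -0.26 (adjusted p = 0.944). In cells with Xist UMIs and no Y-linked UMI the median Hbb-bh1 share was 15.6% in 97 wild-type and 15.2% in 32 Crect lacZ cells. In cells with Y-linked UMIs and no Xist UMI it was 17.8% in 38 and 16.4% in 34. The first class needed more than 1 Xist UMI and the second at least 1 Y-linked UMI. Scrublet marked 9 and 4 cells of the first and 0 and 6 of the second. Cells with both had 17.4% in 69 and 17.2% in 26. The remaining cells, with neither or with 1 Xist UMI alone, had 17.01% in 48 and 18.4% in 59, the latter above each of the other Crect lacZ values. The pooled embryos were not labelled, so sex, embryo and stage cannot be told apart here.

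Outside the split, red cell genes set the globin-high cells apart from the rest, in values that describe the chosen cells. Alas2 was at 2387 CPM of non-haemoglobin UMIs in wild-type globin-high cells and 6.96 in the other cells, and at 2031 and 2.74 in the Crect lacZ library. Slc4a1, the anion exchanger of the membrane, was higher in the Crect lacZ cells, at 1430 against 607.4 CPM in the wild-type cells. Bcl11a was lower in globin-high than in other cells, at 41.6 against 146.9 and 48.0 against 128.0 CPM. Ranked by the share of their UMIs found in globin-high cells, taking the lower of the 2 libraries, the 8 genes most like the haemoglobin genes among 12661 genes were Hbq1b (93.4%), Lmx1a (89.9%), Icam4 (89.7%), Hemgn (88.8%), Hsd3b6 (88.3%), Alas2 (88.2%), Rhd (88.1%) and Trim10 (87.9%). The members themselves ran from 83.2% for Hbb-y to 92.1% for Hba-a1.

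Every other cell carried haemoglobin UMIs too. The 7 genes gave 37.1 UMIs per 10000 in the other wild-type cells (95% exact Poisson interval 37.0 to 37.2) and 18.0 in the Crect lacZ cells (17.9 to 18.1), and 0 cells of either library had none. Thinned to 3000 UMIs per cell, 100% of wild-type and 99.7% of Crect lacZ cells still had at least 1, and 99.7% and 96.4% had Hbb-y. Cells that should lack these genes had like levels. Median shares ran from 0.341% in endothelium-like to 0.398% in unnamed wild-type cells, with mesenchyme-like cells at 0.374% and ectoderm-like cells at 0.362%. In the Crect lacZ library they ran from 0.151% in macrophage-like to 0.187% in unnamed cells. Haemoglobin UMIs per cell were higher in deeper cells, at a median of 34 in the 1915 shallowest and 80 in the 1914 deepest wild-type cells and 19 and 47 in the 1634 shallowest and deepest Crect lacZ cells, while their share was lower, at 0.410 and 0.346% and at 0.200 and 0.162%. The 7 genes made 3.95% of all UMIs of the wild-type and 1.33% of those of the Crect lacZ library, so the library with more haemoglobin RNA also had the higher background.

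The make-up of this background was nearly the same in each class and differed from that of the globin-high cells of its own library. Hbb-y took 54.8 to 56.2% of the haemoglobin UMIs in the wild-type classes and 42.7% in globin-high cells. In the Crect lacZ classes it took 58.5 to 60.5%, except for 51.6% in macrophage-like cells (60.3% without 1 cell described further on), and 45.0% in globin-high cells. Only 2 of 252 wild-type and 0 of 151 Crect lacZ globin-high cells had an Hbb-y share above the background value. Alpha-like genes were under-represented, at 32.9% of the background against 43.8% of the globin-high UMIs in the wild-type library and 27.2% against 41.3% in the Crect lacZ library. Within the alpha-like genes Hba-x was over-represented, at 40.4% against 35.2% and 36.3% against 26.5%. The Hbb-bh1 share of Hbb-bh1 and Hbb-y UMIs was lower, at 12.6% against 16.9% and 13.0% against 16.6%, and so was the adult share of beta-like UMIs, at 6.06% against 8.70% and 5.91% against 8.18%. The haemoglobin UMIs of globin-high and of other barcodes thus did not hold the genes in the same proportions, and the source of that difference was not tested.

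**Figure D5:**
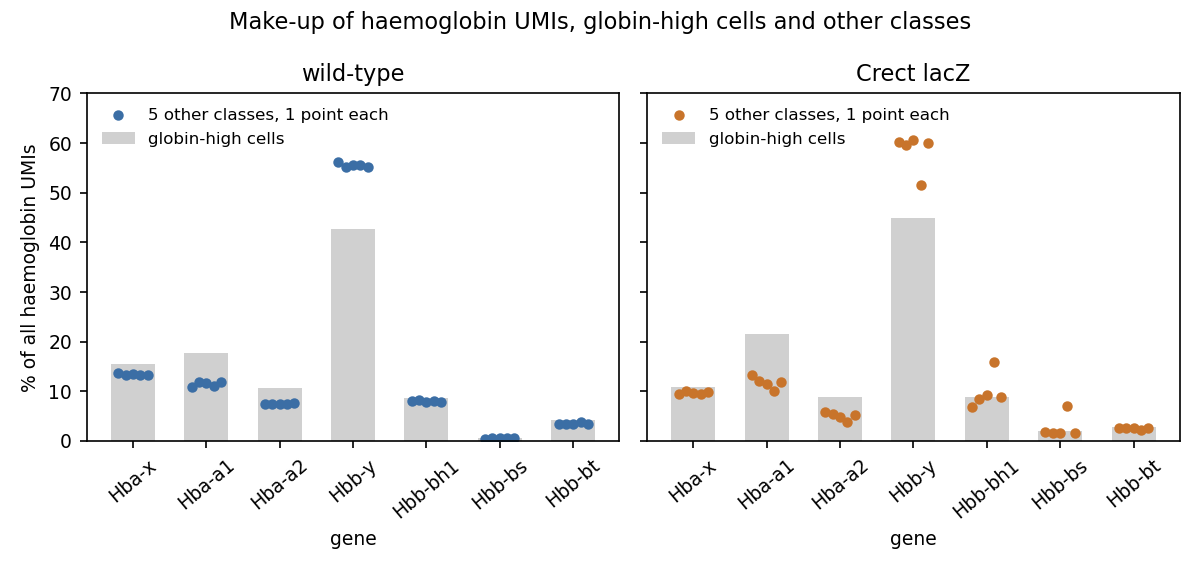
Percentage of all haemoglobin UMIs (vertical axis) in each gene (horizontal axis), as grey bars for globin-high cells and points for the 5 named classes of other cells, in the wild-type (left) and Crect lacZ (right) library. Points lie close together and above the bar for Hbb-y (55.1% against 42.7%, and 59.6% against 45.0% over all other cells), below it for Hba-a1, and the 1 class apart in the Crect lacZ library is the macrophage-like one.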

How the data were processed

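The deposited values were raw UMI counts per gene and barcode, and per the submitters' processing notes the authors used Cell Ranger 2.0 and build mm10. Barcode filtering, strand and the treatment of reads that match several genes are not given in the sources used here. Members, gene lists and rules were chosen with earlier results of these data known. Barcodes with over 10% mitochondrial UMIs were left out, and doublets were kept but scored with Scrublet in scanpy 1.11.5. The automatic threshold gave 170 calls (2.15%) for the wild type. For the Crect lacZ cells it gave 2 (0.03%), taken as failed, so the 369 highest scores were used. Cells were clustered (2000 variable genes, 30 components, 15 neighbours, Leiden at resolution 1) without the 7 genes, and clusters were named from marker lists. Levels are UMIs per 10000 of a cell's UMIs. Medians have order-statistic intervals from scipy 1.17.1.

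The Hbb-bh1-rich and Hbb-bh1-poor cells, summed per library, were compared with edgeR 4.0.16 (TMM, filterByExpr, quasi-likelihood test, library as a block, Benjamini-Hochberg adjustment) in R 4.3.3, with the 7 genes left out of tests and library sizes. DESeq2 1.42.0 was an alternative. The sums share animals within a library, so p-values measure only the spread between these sums. Genes named from it were the largest called changes with a mean of 20 CPM or more and the same sign in both libraries, up to 3 per direction in each of the 13 lists and 5 per direction outside them. List genes below 2-fold, and genes said to be named for a small count, were chosen after their values were seen, as were Hsd3b6, Xist and Eif2s3y and the cell splits by sex-linked genes.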

Additional observations from a re-analysis of the deposited data

Results flagged for a closer look

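Several values went in opposite directions in the 2 libraries, and these differences were not tested, since there is 1 library per genotype. The Hbb-bh1-rich cells had a median of 3874.5 more UMIs than the Hbb-bh1-poor cells in the wild-type library and fewer in the Crect lacZ library (a difference of -2760.5). The median number of genes detected differed likewise, by 415.5 and -305.5. Across globin-high cells, the Spearman correlation of the Hbb-bh1 share with total UMIs was 0.18 in 252 wild-type and -0.20 in 151 Crect lacZ cells. That of the Hba-x share with total UMIs was 0.37 and -0.06. With UMIs summed over cells, the Hbb-bt share of the adult pair in the other cells differed from that in the globin-high cells by -1.03 percentage points in the wild-type library and by 3.48 in the Crect lacZ library. This holds for sums alone, since the Crect lacZ background of 60.2% lay below the median globin-high cell (62.4%), with 81 of 151 cells above it.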

How the results depend on the processing

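The medians of the Hba-x, Hba-a1 and Hbb-bh1 shares stayed within their intervals under all 8 alternatives tried. These were share thresholds, mitochondrial limits, doublets removed, sums in place of medians and the erythroid-like cluster alone. Several kept nearly the same cells and could hardly move a median. Without a mitochondrial limit there were 252 and 151 globin-high cells, and at a 5% share threshold 252 and 153. Ratios of summed UMIs gave an alpha-like share of 43.8% and 41.3%, an Hbb-bt share of 87.0% and 56.7% and, in the Crect lacZ library, an adult share of 8.18%. A 50% threshold left 222 and 126 globin-high cells. The background was 36.8 per 10000 UMIs in the wild-type and 17.9 in the Crect lacZ library at a 5% mitochondrial limit, and in the latter 17.5 both without doublets and in cells under 1%. The share of other Crect lacZ cells with a haemoglobin UMI was 100% unthinned and 99.97% at 5000 UMIs. The 13 genes called at 2-fold became 0 with DESeq2, 0 without the library block, 1 when cells were split by the Hba-x share and 7 without doublets. The other 6 alternatives, all in edgeR with the block, gave 13 to 18. The 48 at any fold became 1 with DESeq2, 0 without the block and 2 under the Hba-x split. They became 94 at a 50% threshold and 90 at 40%, a setting chosen after seeing the data. Under the Hba-x split the log2 change was -0.021 for Eif2s3y, -1.01 for Wdr4 and 0.046 for Nusap1. The cause was not tested. Rich and poor sums were paired within libraries by the block. No paired analysis of the genotypes was possible because there is 1 library for each, and without 1 library no residual degree of freedom was left for a count of calls.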

Other observations

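A few cells stood apart and were chosen after their values were seen. In the wild-type erythroid-like cluster 1 cell lay under the threshold, with 0.983% of 64474 UMIs in the 7 genes. Hbb-bs gave 277 UMIs there, 43.7% of its haemoglobin UMIs, and the adult genes took 71.2% of its beta-like UMIs, a value that no globin-high cell reached. It also had 18 UMIs of Klf1, 13 of Bcl11a, 5 of Myb, 24 of Tfrc and 2 of Sox6, and 2 of Alas2, and Scrublet marked it as a possible doublet.

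In the Crect lacZ library 1 cell of the macrophage-like cluster had 1.08% of 40237 UMIs in the 7 genes, with 230 of Hbb-bh1, 149 of Hbb-bs and 36 of Hbb-y, so Hbb-bh1 took 86.5% of its Hbb-bh1 and Hbb-y UMIs. It had 869 UMIs of Pf4 and 14 of Itga2b, both in the megakaryocyte marker list, but 0 of Ppbp of the same list. Pf4 was also the first of the genes that marked the macrophage-like cluster as a whole. The cell had 11 UMIs of Gata1 and 0 of the macrophage genes C1qa, C1qb and Tyrobp, and it was marked as a possible doublet. Without it the Hbb-bs share of haemoglobin UMIs in the macrophage-like cells was 1.61% instead of 7.04%.

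The wild-type globin-high cell with the highest haemoglobin share, 79.6%, clustered with ectoderm-like cells on 987 genes and had the lowest Hbb-bh1 share, 1.07%. Scrublet marked it too. The 7 Crect lacZ cells between 10% and 30% were all marked. Of the transgenes of the Crect lacZ library, Cre had 4 UMIs in 3 of 151 globin-high cells and 1121 UMIs in the other cells, and lacZ had 0 and 429.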
